A study of Mus musculus with 20 samples.

Results

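The mitochondrial ribosomal protein genes are the nuclear genes named Mrpl for the large and Mrps for the small subunit of the mitochondrial ribosome. They were chosen by symbol alone, as every gene of the deposited table whose name begins with Mrpl or Mrps and a digit, which gave 77 of 22564 genes. The 77 were 47 Mrpl genes, 29 Mrps genes and the pseudogene Mrps36-ps1, which was above 0 in 2 of 20 libraries and did not pass the filter on low values. By present assignments the other 76 hold 49 large-subunit proteins, 26 small-subunit proteins and Mrps36, a protein now counted with the oxoglutarate dehydrogenase complex. Mrps18a and Mrps30 are counted with the large subunit, whatever their symbols. All 76 passed the filter on low values in each tissue, which asked for 2 libraries with 1 FPKM or more.

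The mitochondrial ribosome translates the few messenger RNAs of the mitochondrial genome, all of which encode subunits of the respiratory chain and the ATP synthase. Its ribosomal RNAs are made inside the organelle, but its proteins are encoded in the nucleus, made in the cytosol and imported. Compared with its bacterial relatives it has lost RNA and gained proteins, so that some members have a bacterial counterpart and others are specific to mitochondria. Heart and skeletal muscle both depend on respiration, the heart continuously and a fast muscle such as the tibialis anterior mostly in bouts.

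RNA came from the heart and the tibialis anterior (TA, a fast muscle of the lower leg) of mice in 5 groups, with 2 libraries per group and tissue, which gave 20 libraries. Wild-type mice were C57BL/6N. Transgenic mice, labelled C57BL/6N, carry a system for placing an unnatural amino acid (UAA) at a stop codon, introduced by injecting plasmids into fertilised eggs; its promoter is not stated in the labels. Mdx mice, a model of Duchenne muscular dystrophy with a nonsense mutation in Dmd (dystrophin), are labelled C57BL/10, so strain and mutation cannot be told apart. Trans/mdx mice, labelled C57BL/6N, come from crossing both lines; they carry the transgene and the Dmd mutation and were kept without UAA or given 50 mg of NAEK, the UAA, every 2 to 3 days for 4 weeks. The muscle libraries of trans/mdx mice without UAA are titled as the cross, although their genotype label reads transgenic with a treatment label of no UAA, and they were grouped by title. Age and sex are not stated in the labels.

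The values were FPKM, fragment counts divided by transcript length and by the number of mapped fragments. The spacing of the low values put the depth of the hearts at 3030000 to 4090000 fragments and that of the muscles at 1950000 to 2530000, an estimate that rests on the 66.7 to 75.2% of low values that lay within 4% of a whole step. At that depth the median member rested on 14.9 fragments per heart library and 12.3 per muscle library, and 17 members in heart and 25 in muscle rested on fewer than 10. The tissue labels held against defining markers: Myh6, the atrial and ventricular heavy chain of the mouse heart, lay at 721 to 1367 FPKM in hearts and 0 to 1.98 in muscles, and Myh4, the fast skeletal heavy chain, at 3598 to 6518 FPKM in muscles and 0 to 2.64 in hearts. The atrial genes Nppa and Myl7 were at 0 in every muscle. Heart mdx replicate 2 and muscle wild-type replicate 2 stood apart, with the lowest share of Lars2 in their tissue (5.28% and 7.33% of all FPKM, beside up to 10.3% in the other hearts and 12.7 to 19.2% in the other muscles) and the most genes at 1 FPKM or more (7352 and 8530). In whole tissue, fewer cells of a type and less RNA per cell cannot be told apart.

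Promoters of 6 members are shown as examples of genes the results return to: Mrps9 and Mrps5, higher in heart, Mrpl17, one of those lower in heart, and the relatives Mrps18a, Mrps18b and Mrps18c. Mrps35 and Mrpl15 are among the members with no promoter matched. Each is 120 bases long, from 90 bases before the annotated start to 30 bases from it on, from RefSeq (GRCm38.p6). Capitals mark matches on either strand to GCGCA, any base and GCGC in a row (the motif of NRF1), CCGGAAG (an ETS motif that GABPA recognises) or AANATGGCG (YY1), factors known as regulators of nuclear genes for mitochondrial proteins. The stretch of Mrps9 is at chr1:42851143-42851262 on the plus strand and that of Mrps5 at chr2:127587336-127587455, plus. Mrpl17 is at chr7:105811058-105811177 on the minus strand, Mrps18a at chr17:46110914-46111033, plus, Mrps18b at chr17:35916411-35916530, minus, and Mrps18c at chr5:100798669-100798788, plus.
Mrps9: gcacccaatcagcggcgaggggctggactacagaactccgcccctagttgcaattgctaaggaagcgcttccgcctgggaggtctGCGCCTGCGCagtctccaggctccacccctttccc
Mrps5: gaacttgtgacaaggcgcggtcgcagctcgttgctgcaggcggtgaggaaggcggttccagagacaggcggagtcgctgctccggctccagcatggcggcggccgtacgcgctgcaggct
Mrpl17: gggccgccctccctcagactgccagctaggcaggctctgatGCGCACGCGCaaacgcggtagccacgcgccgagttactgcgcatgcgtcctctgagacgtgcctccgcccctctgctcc
Mrps18a: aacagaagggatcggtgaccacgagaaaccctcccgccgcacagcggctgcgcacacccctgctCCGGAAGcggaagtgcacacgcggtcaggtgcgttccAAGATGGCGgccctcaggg
Mrps18b: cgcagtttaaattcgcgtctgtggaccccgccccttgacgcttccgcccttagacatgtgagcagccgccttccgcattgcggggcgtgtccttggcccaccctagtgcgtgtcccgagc
Mrps18c: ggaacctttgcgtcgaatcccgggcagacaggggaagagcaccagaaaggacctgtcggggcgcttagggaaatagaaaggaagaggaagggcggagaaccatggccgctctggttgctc

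Mrps9 and Mrpl17 each hold an NRF1 motif in this stretch, Mrps18a an ETS and a YY1 motif, and Mrps5, Mrps18b and Mrps18c none of the 3. Promoters of 67 of the 77 members were matched. In the whole window of 250 bases before and 50 after the start, 40 of the 67 held at least 1 of the motifs (59.7%), beside 34.6% of the 7858 tested genes with a promoter and 15.9% of all 27025 genes with one. The NRF1 motif was in 17.9% of members, beside 12.3% of tested genes and 5.19% of all genes, the ETS motif in 35.8%, beside 21.0% and 9.93%, and the YY1 motif in 14.9%, beside 6.53% and 2.76%. Of 18 members lower in heart in the tissue comparison below, 1 held the NRF1 motif, the Mrpl17 shown here. It was in 10 of 47 members that did not pass there and in 1 of 2 higher ones. The ETS motif was in 8 of the 18 and 16 of the 47, and the YY1 motif in 4 and 6. Differences between these shares were not tested. No matches of different motifs overlapped in the members' windows. A match describes letters, and binding was not measured.

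Most members were expressed at a low level in both tissues, and a small number carried much of the total. The median member had a mean of 3.56 FPKM in heart and 4.81 in muscle, and means spanned a 52.6-fold range in heart and 38.6-fold in muscle. The 5 highest members made up 29.2% of the summed FPKM in heart and 23.4% in muscle.

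Mrpl42, a mitochondria-specific protein of the large subunit, had the highest mean in both tissues, 38.2 ± 9.15 FPKM in heart and 40.3 ± 11.7 in muscle (SD, n = 10 libraries each). It was above the next member in 9 of 10 hearts and 10 of 10 muscles. In heart it was followed by Mrps5, a small-subunit protein with a bacterial counterpart (25.1 ± 6.81), Mrps35, a mitochondria-specific protein of the small subunit (22.5 ± 4.61), Mrps21, the counterpart of a small bacterial protein (19.9 ± 8.45), and Mrpl33, of the large subunit (14.9 ± 7.11). Each of these was above the next in the order in only 6 or 7 of 10 hearts, so their order was not separated by the spread between libraries. In muscle Mrpl42 was followed by Mrps21 (22.2 ± 6.65 FPKM), Mrpl51 (18.5 ± 5.33), Mrpl33 (17.7 ± 6.36) and Mrpl54 (15.9 ± 8.61), the last 3 of the large subunit. Mrps21 was above Mrpl51 in 9 of 10 muscles, and the order of the others was not separated.

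The lowest means in heart were those of Mrpl11 (0.726 ± 0.300 FPKM), Mrps26 (0.842 ± 0.834), Mrpl35 (0.914 ± 0.405), Mrps11 (1.05 ± 0.847) and Mrpl19 (1.11 ± 0.845). In muscle they were those of Mrpl49 (1.04 ± 1.37), Mrpl19 (1.13 ± 0.465), Mrps33 (1.28 ± 1.18), Mrps11 (1.44 ± 1.11) and Mrpl35 (1.55 ± 0.710). Of 1520 values 32 were exact zeros, in 16 genes, with 24 of them in heart. In 3 cases the other libraries of the tissue had a median of 5 FPKM or more, which were Mrpl52 and Mrpl14 in muscle mdx replicate 1 and Mrps18c in muscle mdx replicate 2. An exact 0 in FPKM can be a failed estimate, so these genes are only said to be listed at 0.

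**Figure D1:**
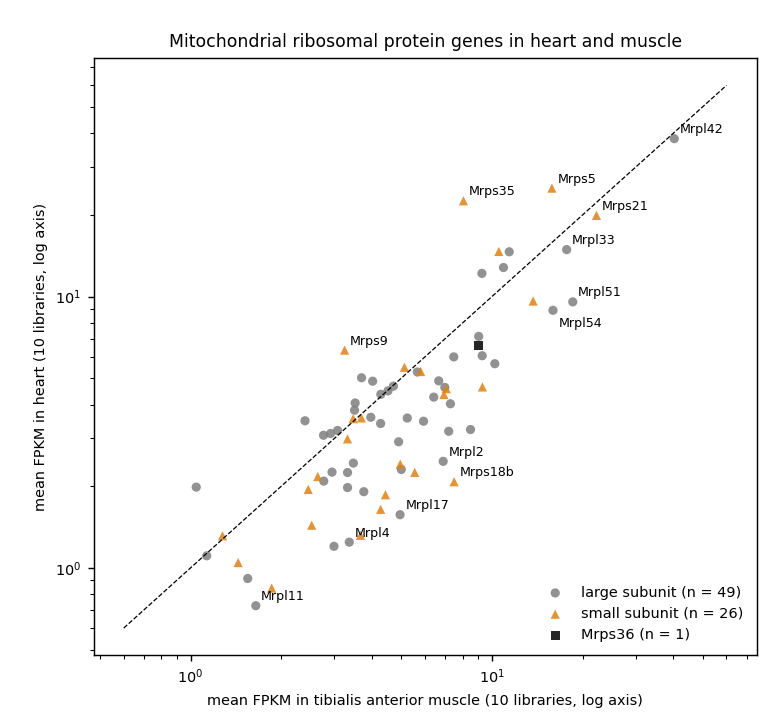
Mean FPKM of the 76 genes in heart (vertical) against tibialis anterior muscle (horizontal), both on log axes, over 10 libraries each; circles are large-subunit, triangles small-subunit genes, the square is Mrps36, and the dashed line marks equal levels. Mrpl42 is highest on both axes and lies near the line, Mrps35, Mrps9 and Mrps5 lie above it, and Mrps18b, Mrpl2 and Mrpl17 below it.

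Small-subunit genes made up 34.3 to 40.3% of the summed FPKM in hearts and 30.7 to 38.4% in muscles. The summed FPKM of all 76 genes was 307 to 611 in hearts, with a median of 387, and 404 to 816 in muscles, with a median of 471. The highest sums were those of heart mdx replicate 2 (611) and muscle wild-type replicate 2 (816), the libraries that stood apart above, and the other 9 muscles lay between 404 and 485. As a share of all FPKM the family took 0.222 to 0.407% in hearts and 0.265 to 0.391% in muscles. The median SD between the mice of a group, on the log2(FPKM + 1) scale, was 0.58 for members and 0.44 for all 10085 genes tested.

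**Figure D2:**
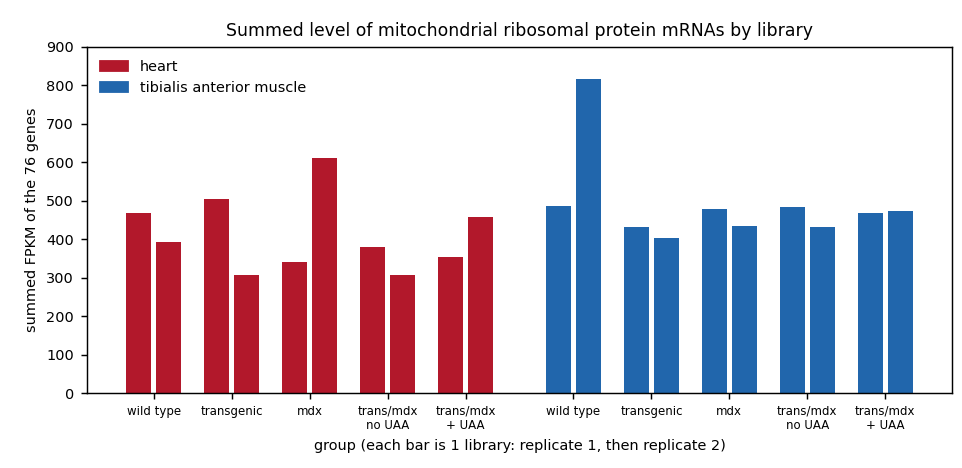
Summed FPKM of the 76 genes in each of the 20 libraries, as bars from 0, by group and with replicate 1 before replicate 2. Muscle wild-type replicate 2 (816 FPKM) and heart mdx replicate 2 (611) are the highest of their tissues, and the other 9 muscles lie between 404 and 485.

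Heart and TA muscle differed in 26 of the 76 members, 3 higher and 23 lower in heart, at an adjusted p under 0.05 (limma on log2(FPKM + 1) over all 20 libraries, two-sided, Benjamini-Hochberg over 10085 genes). The 26 are 34.2% of the members; over all genes tested 41.6% passed, 10.4% higher and 31.2% lower. The 3 higher ones, Mrps35, Mrps9 and Mrps5, are all small-subunit genes. The median difference (heart minus muscle) was -0.31 for members and -0.25 for all genes. This split depends on the scaling. Median-of-ratios scaling moved the median of all genes to -0.03 and gave 11 members higher and 10 lower (all genes 19.3% and 20.8%), and quantile normalization moved it to 0.01 and gave 10 and 10 (21.0% and 19.4%). The members' median was then -0.0025 and 0.02, so a direction for the family as a whole is not given. Of the 26 members, 13 passed in the same direction under both scalings, namely all 3 higher ones and 10 of the 23 lower ones.

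Mrps35 (chr6:147042764-147073991, mm10) was the only member whose hearts and muscles did not overlap; over all genes 2.84% lay wholly above and 7.82% wholly below. Its FPKM in replicates 1 and 2 was 19.6 and 16.4 in wild-type hearts, 27 and 20.4 in transgenic hearts and 16.2 and 29.9 in mdx hearts. It was 27 and 24.6 in hearts of trans/mdx mice without UAA and 23.3 and 21.0 with UAA. In muscle it was 8.03 and 8.19 in wild-type, 4.92 and 9.72 in transgenic and 10.5 and 4.87 in mdx mice, 7.93 and 9.10 in trans/mdx mice without UAA and 7.43 and 9.71 with UAA. Every heart was above every muscle, in all 5 groups. The difference was 1.39 on the log2 scale (SE 0.18, limma adjusted p = 4.78e-06), and Mrps35 made up 4.17 to 7.98% of the family's summed FPKM in hearts and 1.0 to 2.41% in muscles. With the 4 wild-type libraries alone it was 1.05, with an adjusted p of 0.103. No other annotated gene overlaps Mrps35.

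Mrps9 (chr1:42851233-42905683), a small-subunit protein with a bacterial counterpart, ranged from 3.19 to 11.8 FPKM in hearts (median 6.96) and from 0.748 to 7.32 in muscles (median 2.86). All 10 hearts were above the median of the muscles, and the ranges overlapped. The difference was 0.81 (SE 0.24, limma adjusted p = 0.0108), but 0.12 with the 4 wild-type libraries alone (adjusted p = 0.895). Mrps5 (chr2:127587222-127606829), which lies near the ribosome's decoding site in bacteria, ranged from 13.2 to 34.7 FPKM in hearts (median 25.5) and from 7.39 to 36.1 in muscles (median 14.3). Muscle of the trans/mdx group without UAA, replicate 1, held the highest value of all 20 libraries, and 9 of 10 hearts were above the muscle median. The difference was 0.71 (SE 0.23, limma adjusted p = 0.0198). It no longer passed without muscle mdx replicate 1 (0.59), without muscle trans/mdx replicate 2 of the group without UAA (0.57) or with the wild-type libraries alone (1.12).

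Among the 23 lower members, the 8 with the largest difference were Mrps18b, Mrpl2, Mrpl15, Mrpl17, Mrps7, Mrps24, Mrps10 and Mrpl4. All 8 were lower in heart in each of the 5 groups, and in none did the hearts lie wholly below the muscles. Mrps18b (chr17:35910379-35916389), a mitochondria-specific protein of the small subunit, ranged from 0 to 8.58 FPKM in hearts (median 1.51) and from 2.44 to 13.9 in muscles (median 7.84). The heart value of 8.58 was that of wild-type replicate 1. Its difference was -1.54 (SE 0.25, limma adjusted p = 6.43e-05). Mrpl2 (chr17:46646229-46650139), a core protein near the peptidyl transferase centre, ranged from 0 to 4.63 FPKM in hearts (median 2.08) and from 2.75 to 14.1 in muscles (median 5.71), a difference of -1.28 (SE 0.27, limma adjusted p = 0.00081). For Mrpl15 the median was 3.18 FPKM in hearts and 7.62 in muscles (-1.21, SE 0.25), and for Mrpl17, which lies by the exit of the peptide tunnel in bacteria, 1.33 and 3.23 (-1.13, SE 0.26).

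The other 4 are counterparts of bacterial proteins of either subunit. Mrps7, of the head of the small subunit, had a median of 2.39 FPKM in hearts and 4.93 in muscles (-1.08, SE 0.24), and Mrps24 of 1.14 and 3.57 (-1.04, SE 0.24). Mrps10 had a median of 1.68 FPKM in hearts and 5.10 in muscles (-1.02, SE 0.21), and Mrpl4, of the large subunit, of 1.24 and 3.50 (-1.02, SE 0.20). The limma adjusted p of these 6 genes lay between 0.000512 for Mrpl4 and 0.00211 for Mrps24, and all 8 passed with both other scalings. With the 4 wild-type libraries alone Mrpl15 (adjusted p = 0.0496) and Mrpl4 (0.0226) still passed, and the other 6 did not. Of the 8 genes 5 have a heart listed at 0, in 1 library each for Mrps18b, Mrpl2 and Mrps10 and in 2 each for Mrps24 and Mrpl4. Mrpl2, Mrpl15 and Mrps24 overlap another annotated gene on the same strand, Mrps18b, Mrpl17 and Mrps7 one or more on the opposite strand, and Mrps10 and Mrpl4 none, and shared reads were not resolved.

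**Figure D3:**
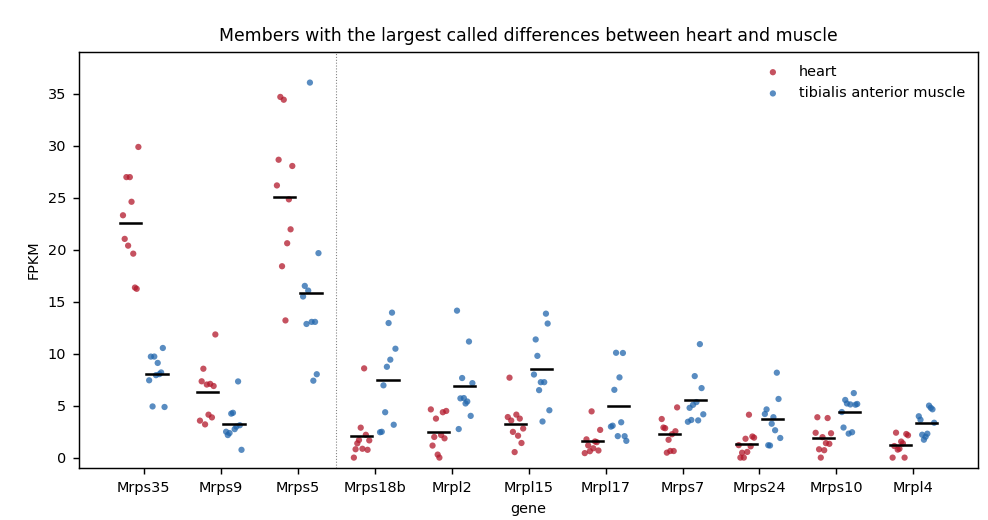
FPKM of the 3 members called higher and the 8 with the largest called decrease in heart, 1 point per library (10 hearts, 10 tibialis anterior muscles), with the mean as a black bar. The hearts and muscles of Mrps35 do not overlap; those of the other 10 genes do.

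By subunit, 14 of 49 large-subunit genes were lower in heart and 0 were higher, with 35 not passing. Of 26 small-subunit genes 9 were lower, 3 higher and 14 did not pass. Over all genes tested 31.2% were lower and 10.4% higher, and the share of lower genes was 28.6% in the large and 34.6% in the small subunit. With median-of-ratios scaling 7 large-subunit genes were higher and 6 lower, and 4 small-subunit genes each way; quantile normalization gave 6 each way and 4 each way. The medians were -0.32 and -0.23, beside -0.25 for all genes. Among members with a bacterial counterpart 7 of 29 in the large and 7 of 16 in the small subunit were lower, and among the mitochondria-specific ones 7 of 20 and 2 of 10. Under both other scalings 7 further members passed as higher in heart, 6 of them in the large subunit. The 7 were Mrpl12, which also binds the mitochondrial RNA polymerase, Mrpl3, Mrpl18, Mrpl32, Mrpl39, Mrpl41 and Mrps23, whose differences in FPKM as deposited were 0.20 to 0.45, with adjusted p from 0.0601 to 0.418.

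The Mrps18 genes are paralogs whose products sit at different places: Mrps18c in the small subunit at the site of its bacterial relative, Mrps18b elsewhere in the small subunit and Mrps18a in the large subunit. Mrps18a (chr17:46110986-46128910) ranged from 0 to 5.18 FPKM in hearts (median 3.37) and from 3.14 to 14.3 in muscles (median 6.88), and was lower in heart (-1.01, SE 0.24, limma adjusted p = 0.00249), in all 28 alternatives run. Mrps18c ranged from 2.24 to 11.5 FPKM in hearts (median 4.71) and from 0 to 8.40 in muscles (median 5.05). Its difference was 0.18 (SE 0.34, adjusted p = 0.696), and the difference between the paralogs' contrasts was not tested. Besides Mrps18a, 2 of the 26 members, Mrpl15 and Mrpl4, passed in the same direction in every alternative that gave them a value. Mrps18a and Mrpl4 rested on a mean of only 8.89 and 3.89 fragments per heart library. Mrps36, whose product is not a ribosomal subunit, ranged from 1.79 to 10.0 FPKM in hearts and from 4.84 to 18.8 in muscles, with a difference of -0.41 (SE 0.21, adjusted p = 0.137).

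**Figure D4:**
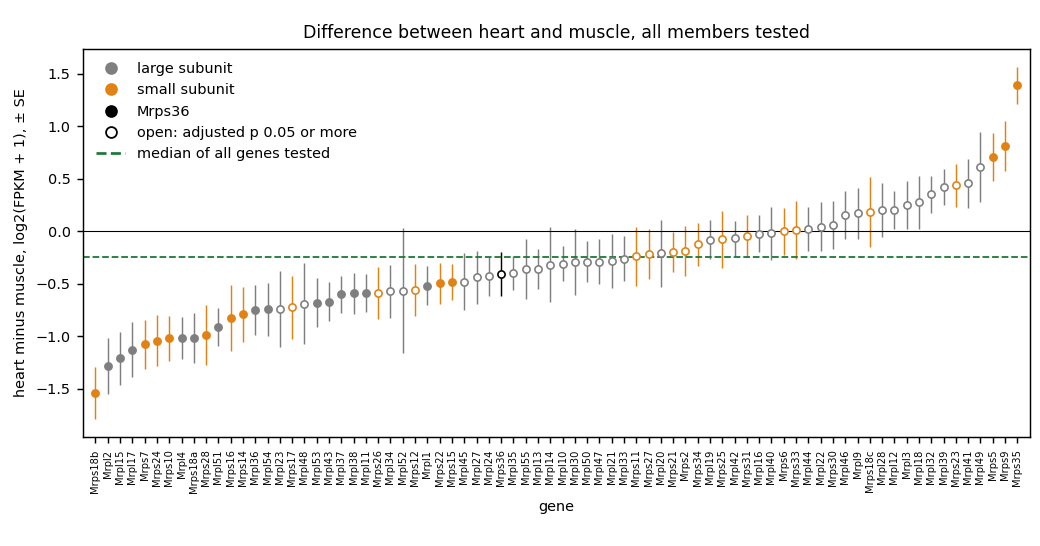
Difference between heart and muscle on the log2(FPKM + 1) scale, with its SE, for the 76 members in order of size; filled points passed at an adjusted p under 0.05 (limma), grey is the large subunit, orange the small subunit, black Mrps36, and the dashed line is the median of all genes tested (-0.25). The 3 filled points above 0 are Mrps5, Mrps9 and Mrps35, and 23 filled points lie below 0.

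Other genes of mitochondrial translation are given by list, each count to be read beside 10.4% higher and 31.2% lower over all genes tested. Of 7 subunit genes without an Mrp symbol 1 was higher in heart, Ptcd3 (7.32 ± 2.72 FPKM in heart, 4.37 ± 0.988 in muscle, SD, n = 10), and 3 were lower, among them Aurkaip1 (4.21 ± 1.71 and 7.01 ± 1.9). Of 20 assembly factors 7 were lower, among them Malsu1, which binds the large subunit (1.59 ± 1.09 and 5.56 ± 2.97 FPKM), and 1 was higher, the methyltransferase Trmt2b (2.28 ± 0.745 and 0.859 ± 0.379). Of 14 translation factors Gfm1, the elongation factor that moves the ribosome along, was higher (21.1 ± 7.05 and 12 ± 4.86 FPKM, log2 difference 0.78, limma adjusted p = 0.0048) and Gfm2, which acts in recycling, was lower (5.08 ± 2.68 and 8.90 ± 2.56 FPKM, -0.80, adjusted p = 0.00674). The other 12 did not pass. Of 15 mitochondrial aminoacyl-tRNA synthetases tested, which load the transfer RNAs, 2 were higher, Iars2 (5.18 ± 1.68 and 3.30 ± 0.902 FPKM) and Fars2 (3.36 ± 1.81 and 1.80 ± 0.609), and Lars2 was lower (11125 ± 1856 and 23133 ± 3114 FPKM, -1.06). Lars2 alone held 5.28 to 10.3% of all FPKM in hearts and 7.33 to 19.2% in muscles. Whether so high a value measures only its messenger RNA was not tested, so its difference is not read as one of a synthetase.

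Of 17 genes of mitochondrial transcription and RNA handling 3 were higher and 4 lower, and of 9 regulators of mitochondrial biogenesis 1 was higher and 4 lower. The regulator that was higher was Gabpa, the DNA-binding subunit of the factor whose motif is marked above (12.8 ± 7.76 FPKM in heart, 3.83 ± 3.02 in muscle, log2 difference 1.53). Pprc1, a coactivator, was lower (0.901 ± 1.08 and 3.65 ± 2.74 FPKM, -1.22). Yy1, whose motif is also marked above, was lower too (2.52 ± 1.05 and 4.24 ± 1.25 FPKM, -0.60). Of 12 messenger RNAs of the mitochondrial genome, which the mitochondrial ribosome translates, 11 were higher in heart and 1 was lower, with a median of 1.38. Nuclear subunits of the respiratory complexes split into 17 higher and 11 lower of 78 (median -0.0021), and the proteins of the cytosolic ribosome into 2 higher and 51 lower of 79 (median -0.73). These counts moved with the scaling. Median-of-ratios scaling gave 8 translation factors higher and 1 lower, quantile normalization 8 and 0, and the assembly factors 2 higher with 3 and 2 lower. The subunits without an Mrp symbol had 1 higher and 0 lower under both, the transcription and RNA-handling genes 4 and 2, the biogenesis regulators 3 and 1, and the synthetases 3 and 1. The nuclear respiratory subunits had 43 higher and 5 lower with median-of-ratios scaling and 39 and 5 with quantile normalization, and the cytosolic ribosomal proteins 9 and 28 or 9 and 27. The mitochondrial messenger RNAs stayed at 11 higher and 1 lower in both. These lists were chosen with results of these data known, and their counts describe the same comparison.

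Markers of other cell types also differed between the tissues. Of 8 adipocyte markers 7 were lower in heart, with a summed level of 67.4 to 128 FPKM in hearts and 158 to 640 in muscles. Much of the muscle sum came from Car3 alone (1.68 ± 2.28 FPKM in heart, 270 ± 80.5 in muscle, SD, n = 10). The adipocyte sums in muscle, here and below, are therefore not read as fat-cell content. Of 5 erythrocyte markers 4 were higher (97.8 to 286 and 36.8 to 151 FPKM), of 5 endothelial markers 3 were higher (19.5 to 35.0 and 13.8 to 25.2 FPKM), and of 6 fibroblast markers 3 were lower and 1 was higher (36.2 to 93.4 and 33.7 to 214 FPKM). Of 7 macrophage markers tested 2 were higher (6.39 to 33.0 and 3.35 to 23.9 FPKM). Their part in the members' differences was not tested.

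Within a tissue no member passed at an adjusted p under 0.05 in any comparison of groups (limma per tissue, 10 libraries, 2 mice against 2). In heart 1 of 8269 genes (0.0121%) passed in each of the comparisons of mdx with wild-type, of transgenic with wild-type and of untreated trans/mdx with mdx mice, and 0 genes (0.0%) did in the other 3. In muscle 0 of 9126 genes (0.0%) passed in each of the 6 comparisons. At an unadjusted p under 0.05, 2 of 76 members passed for mdx against wild-type hearts (2.65% of all genes), 5 for transgenic against wild type (3.37%), 6 for untreated trans/mdx against transgenic (4.17%) and 8 against mdx (5.79%). For hearts of treated against untreated trans/mdx mice it was 9 members (6.01% of all genes), and against transgenic mice 4 (3.83%). In muscle it was 12 for mdx (10.1%) and 15 for transgenic mice (9.91%), each against wild type, 6 for untreated trans/mdx against transgenic (3.79%) and 3 against mdx (5.33%), 4 for treated against untreated (3.99%) and 10 against transgenic mice (4.87%). No gene of the other mitochondrial or ribosomal lists passed in these comparisons either. Several of them share a group: the wild-type, transgenic, mdx, untreated trans/mdx and treated trans/mdx libraries each serve in 2 or more, so their values are not independent. With 2 mice against 2, values often do not overlap even without a difference between the groups. The share of all genes without overlap was not counted, so non-overlap of genes or marker sums below only describes the values.

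The mdx comparison asks what the loss of dystrophin changes, but strain and mutation differ together and cannot be told apart in it. In heart the members' median difference between mdx and wild type was 0.01, beside 0.07 for all genes. The members' median ranged from -0.25 to 0.42 when each library was left out in turn. Mrpl48, a mitochondria-specific large-subunit protein, was at 5.66 and 14.5 FPKM in mdx and 1.78 and 0.862 in wild-type hearts, without overlap (2.16, SE 0.88, limma adjusted p = 1.0). Mrps18b was at 0.749 and 1.66 FPKM in mdx and 8.58 and 2.19 in wild-type hearts (-1.36, SE 0.55), and Mrps36 at 5.53 and 3.73 against 9.72 and 10.0 (-0.97, SE 0.46). The other members named by the same rule, Mrpl4, Mrps6 and Mrps12, had differences of 1.06, 0.97 and -0.89. Summed marker levels that did not overlap between these hearts were those of erythrocytes (174 to 286 FPKM in mdx, 97.8 to 105 in wild type), fibroblasts (64.0 to 93.4 and 58.9 to 61.6), macrophages (20.3 to 33.0, and 18.3 in both wild-type hearts) and adipocytes (73.8 to 113 and 125 to 128). Their part in the differences was not tested, here and in the comparisons that follow.

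In muscle 67 of 76 members were below wild type in mdx, and 43 were below the median of all genes. The members' median was -0.41, beside -0.35 for all 9126 genes. This rests on the wild-type library that stood apart: the median was -0.76 with that replicate alone as the wild type and -0.19 (all genes -0.09) without it. With median-of-ratios scaling it was -0.0063, and with quantile normalization -0.03. The summed level of 5 endothelial markers was 24.6 and 25.2 FPKM in the wild-type muscles and 13.8 and 14.2 in the mdx muscles, and that of 6 fibroblast markers 115 to 214 and 93.7 to 98.0. Mrps6 was at 1.28 and 0.883 FPKM in mdx and 6.22 and 4.54 in wild-type muscle (-1.61, SE 0.46, limma adjusted p = 0.424). Mrps6 overlaps 3 annotated genes on the same strand, among them Slc5a3, and shared reads were not resolved. Mrps17 lay at 5.80 and 4.94 in mdx and 10.3 and 10.9 FPKM in wild type (-0.87, SE 0.34), and Mrpl45, which anchors the ribosome to the inner membrane, at 1.33 and 2.75 against 3.70 and 7.51 (-1.10, SE 0.42). Among the few members above wild type, Mrpl41 lay at 5.0 and 8.52 FPKM in mdx and at 0.766 and 3.17 in wild type (1.48, SE 0.53), and Mrpl48 at 17.5 and 11.1 against 2.54 and 9.41 (1.30, SE 0.53). The mdx and wild-type values of these 5 genes did not overlap, which is common with 2 mice against 2. Mrpl28 had 0.42 (SE 0.55).

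Transgenic mice without the Dmd mutation were compared with wild type to show what the transgene changes. In heart the members' median was -0.14, beside -0.08 for all genes. With each library left out in turn the members' median ranged from -0.37 to 0.21. Mrps12, the counterpart of a bacterial protein at the decoding site, was at 2.24 and 1.04 FPKM in transgenic and 7.75 and 7.21 in wild-type hearts (-1.72, SE 0.51, limma adjusted p = 1.0). Mrps10 was at 0.798 and 0 against 1.39 and 3.80 FPKM (-1.34, SE 0.49), and Mrps24 at 0.467 and 0 against 4.12 and 1.08 (-1.43, SE 0.53). All 3 separated the groups, but Mrps10 and Mrps24 are listed at 0 in replicate 2. In the upward direction Mrpl27, Mrps15 and Mrps23 had 1.15, 0.74 and 0.59. Summed erythrocyte markers lay at 134 to 184 FPKM in transgenic and 97.8 to 105 in wild-type hearts, and adipocyte markers at 78.2 to 124 and 125 to 128.

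In muscle 64 of 76 members were below wild type in transgenic mice, and 49 were below the median of all genes. The members' median for transgenic against wild type was -0.50, beside -0.33 for all genes. It was -0.96 with the high wild-type library alone and -0.25 (all genes -0.07) without it, and -0.09 with median-of-ratios scaling. Mrpl53 was at 0.898 and 2.63 FPKM in transgenic and 9.40 and 13.1 in wild-type muscle (-2.21, SE 0.44, limma adjusted p = 0.247), and Mrpl33 at 6.36 and 8.03 against 22.6 and 24.5 (-1.59, SE 0.33, adjusted p = 0.256). Both are large-subunit genes, and both had their 2 lowest muscle values in the transgenic group. Mrpl49 is listed at values that round to 0 in both transgenic muscles, beside 3.02 and 2.69 FPKM in wild type, and no fold is given. In the upward direction Mrpl43, Mrpl1 and Mrpl41 had 0.71, 0.58 and 0.76. Summed endothelial markers lay at 13.9 to 14.7 FPKM in transgenic and 24.6 to 25.2 in wild-type muscle, and fibroblast markers at 71.7 to 72.2 and 115 to 214. The sum of 6 skeletal fibre markers lay at 15160 to 15311 and 16446 to 26722 FPKM, and that of 6 cardiomyocyte markers at 14.6 to 17.2 and 38.8 to 124.

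The untreated trans/mdx mice were compared with each parent line. Against mdx mice the labelled strain differs as well (C57BL/6N and C57BL/10), so strain and transgene cannot be told apart in either tissue. In heart 2 members, Mrps23 and Mrpl2, were among those with the smallest p in both comparisons, which share the untreated libraries. Mrps23, a mitochondria-specific small-subunit protein, was at 4.94 and 4.40 FPKM in hearts of untreated trans/mdx mice, the 2 lowest of the 10 hearts. It was at 17.6 and 24.2 in mdx, 18.0 and 18.9 in transgenic, 14.8 and 9.55 in wild-type and 15.2 and 19.1 in treated trans/mdx hearts. The difference was -1.93 (SE 0.41, limma adjusted p = 0.335) against mdx and -1.78 (SE 0.41, adjusted p = 0.942) against transgenic hearts. Mrpl2 was at 0.29 and 0 FPKM, beside 1.85 and 4.49 in mdx and 1.98 and 3.75 in transgenic hearts (-1.80 and -1.73, SE 0.53 each). Mrpl55 is listed at 0 in replicate 2 and at a value that rounds to 0 in replicate 1, beside 5.56 and 10.9 FPKM in mdx hearts, and it is also listed at 0 in transgenic replicate 2. Against transgenic hearts its difference was -1.16 (SE 0.61, adjusted p = 1.0). Its limma adjusted p against mdx was 0.245, but 0.0266 and 0.0273 when transgenic replicate 1 or 2 was left out and 0.000138 with the 4 libraries compared alone. Without UAA the members' median was -0.29 against mdx (all genes -0.26) and -0.16 against transgenic hearts (all genes -0.11). The median against mdx was -0.04 without mdx replicate 2, the heart library that stood apart, and -0.68 with it alone as mdx. The median against transgenic hearts ranged from -0.43 to 0.14 when each library was left out in turn. The other members named were Mrps11, Mrpl43 and Mrps36 above mdx (0.95, 0.56 and 0.53), Mrps12, Mrpl41 and Mrps6 above transgenic (1.14, 0.96 and 0.96) and Mrpl27 below transgenic (-1.43). Summed macrophage markers lay at 6.39 to 10.6 FPKM in the untreated trans/mdx hearts, 13.2 to 22.4 in transgenic and 20.3 to 33.0 in mdx hearts, and fibroblast markers at 39.3 to 53.4 against 64.0 to 93.4 in mdx.

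In muscle Mrpl48 was at 1.09 and 0.597 FPKM in untreated trans/mdx mice, the 2 lowest of the 10 muscles, beside 17.5 and 11.1 in mdx, 11.3 and 5.06 in transgenic, 2.54 and 9.41 in wild-type and 6.70 and 4.48 in treated mice. The difference was -3.03 (SE 0.53, limma adjusted p = 0.381) against mdx and -2.24 (SE 0.53, adjusted p = 1.0) against transgenic muscle. Mrpl48 overlaps 3 annotated genes on the other strand, and whether the counting used strand is not stated in the labels. Mrpl53 was at 8.57 and 8.70 FPKM and Mrpl33 at 19.3 and 19.6, beside the low transgenic values given above (1.88, SE 0.44, and 1.33, SE 0.33). Mrps28 was at 3.65 and 4.19 FPKM, beside 14.8 and 8.42 in mdx muscle (-1.31, SE 0.40) and 6.40 and 8.59 in transgenic muscle (-0.78, SE 0.40). The members' medians were 0.01 against mdx and 0.09 against transgenic muscle, beside 0.07 and 0.05 for all genes. The others named were Mrps33, Mrps23, Mrps15 and Mrps18a against mdx (1.32, 1.02, 0.65 and -0.87) and Mrps23 and Mrpl1 against transgenic (1.30 and -0.94). Summed endothelial markers lay at 17.2 to 22.4 FPKM in the untreated trans/mdx muscles, 13.8 to 14.2 in mdx and 13.9 to 14.7 in transgenic muscle, and fibroblast markers at 54.8 to 60, 93.7 to 98.0 and 71.7 to 72.2. Macrophage markers were lower than in transgenic muscle (8.54 to 9.86 and 16.3 to 21.1 FPKM), and adipocyte markers higher than in mdx (468 to 640 and 158 to 423). Cardiomyocyte markers were lower than in mdx muscle (7.14 to 17.3 and 29.4 to 125 FPKM).

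UAA treatment is meant to let translation pass the stop codon in Dmd. In heart the members' median difference between treated and untreated trans/mdx mice was 0.21, beside 0.15 for all genes. With each library left out in turn the members' median ranged from 0.08 to 0.44. Mrps23 (1.67, SE 0.41, limma adjusted p = 0.344) and Mrpl2 (1.62, SE 0.53), at 4.63 and 1.16 FPKM with UAA, were above the untreated hearts without overlap, and Mrpl55 was at 7.10 and 4.91 FPKM with UAA. These are the genes that were low in the untreated hearts, which serve in both comparisons. In the other direction Mrps6 was at 1.41 and 2.96 FPKM with and 5.18 and 7.67 without UAA (-1.25, SE 0.51), and Mrps25 and Mrps36 had -1.12 and -0.95. Against transgenic hearts the median was 0.02 (all genes 0.04), and Mrps10, Mrpl55, Mrpl19, Mrps36, Mrps18b and Mrpl16 had 1.60, 1.64, 1.18, -1.07, -0.91 and -0.68. That median ranged from -0.25 to 0.35 when each library was left out in turn. Summed macrophage markers lay at 12.8 to 17.1 FPKM in treated and 6.39 to 10.6 in untreated trans/mdx hearts, and adipocyte markers at 85.7 to 93.7 and 67.4 to 81.4. Skeletal fibre markers lay at 108.4 to 124.5 FPKM in treated and 63.0 to 82.5 in untreated hearts.

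In muscle the median difference for UAA was 0.02 for members and for all genes. Mrps18b was at 2.44 and 2.48 FPKM with and 8.73 and 12.9 without UAA (-1.75, SE 0.47, limma adjusted p = 0.953), and Mrpl48 at 6.70 and 4.48 against 1.09 and 0.597 (1.83, SE 0.53, adjusted p = 1.0). Neither pair of groups overlapped. Mrpl32, Mrps17, Mrps22 and Mrps15 had 0.85, 0.73, -1.27 and -0.70. Against transgenic muscle Mrpl53 was at 5.23 and 11.1 FPKM with UAA (1.72, SE 0.44, limma adjusted p = 0.925) and Mrpl33 at 14.7 and 23.5 (1.26, SE 0.33), and Mrpl36, Mrpl1, Mrpl43 and Mrpl17 had 1.94, -1.10, -1.06 and -1.18. The summed markers of adipocytes, erythrocytes, fibroblasts and macrophages were lower in treated than in untreated muscle without overlap (adipocyte 274 to 383 and 468 to 640 FPKM, erythrocyte 43.4 to 51.8 and 62.0 to 64.0, fibroblast 33.7 to 54.1 and 54.8 to 60, macrophage 4.13 to 4.53 and 8.54 to 9.86). Transgenic muscle also lay above treated muscle in adipocyte (446 to 530), fibroblast (71.7 to 72.2) and macrophage markers (16.3 to 21.1) and below it in endothelial markers (13.9 to 14.7, beside 16.9 to 18.4).

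**Figure D5:**
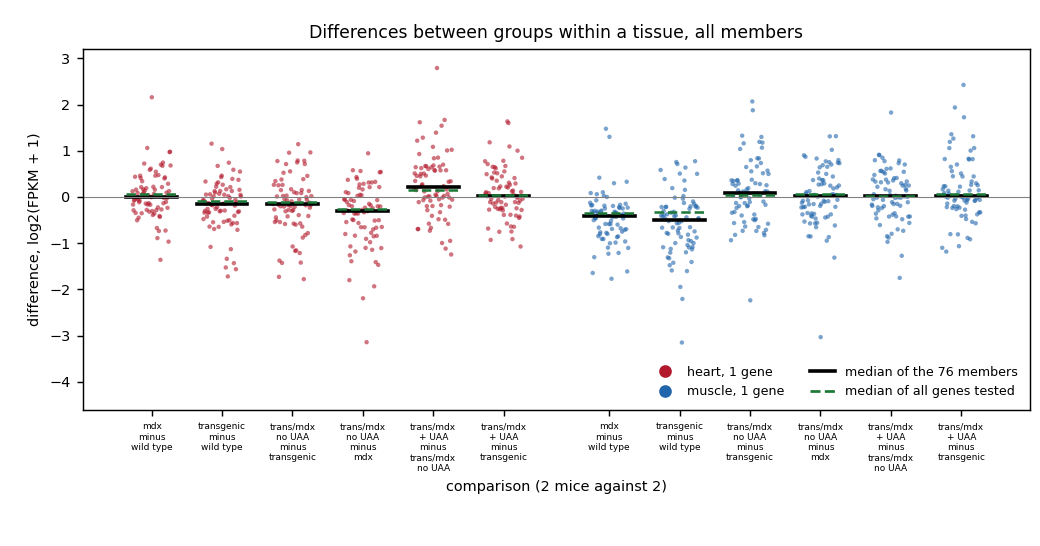
Differences on the log2(FPKM + 1) scale between groups within heart (red) and tibialis anterior muscle (blue), 1 point per member, with the members' median as a black bar and the median of all genes tested as a green dashed bar. The members' median lies within 0.17 of that of all genes in every comparison. The lowest heart point is Mrpl55 in untreated trans/mdx minus mdx (-3.14), which rests on untreated values that are or round to 0 and can be failed estimates.

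Whether a group difference was larger in one tissue than in the other was tested as an interaction over all 20 libraries. No member passed in any of the 6 tests, and 0 of 10085 genes (0.0%) did. At an unadjusted p under 0.05 it was 5 members for mdx against wild type (6.0% of all genes), 7 for the transgenic mice (4.63%), 3 for untreated trans/mdx against transgenic (3.89%) and 6 against mdx (5.61%). For treated against untreated mice it was 6 (4.56%), and for treated against transgenic mice 5 (4.0%). The smallest adjusted p of a member was 0.344, in untreated trans/mdx against mdx. With 2 mice per group and most members at a few FPKM, the differences named above did not pass for any member at this depth.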

How the data were processed

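The deposited values were FPKM per gene in 20 libraries, made by the authors from rRNA-depleted total RNA with a directional kit, per the labels' protocols. The submitters' processing notes list HISAT2 2.0.4, cutadapt 1.9.3, Cuffdiff, Cufflinks and the build mm10, without roles. The annotation is not given in the sources used here, nor is the use of strand in counting. FPKM were not rescaled; limma 3.58.1 (R 4.3.3) was applied to log2(FPKM + 1), with an intensity trend and a coefficient per group, per tissue (5 residual degrees of freedom) and over both (10). Only genes reaching 1 FPKM in 2 or more fitted libraries entered the two-sided tests, adjusted by Benjamini-Hochberg and called at 0.05, after a check on simulated data. Log2 differences understate changes of low genes. An emptied line of the table was left out.

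Members, lists, tests and the naming rule were chosen with earlier results of these data known. Named were all members past the threshold, or the 8 largest differences per direction where more passed, the 3 smallest p per direction where none passed, the 5 highest and 5 lowest means per tissue, the Mrps18 genes, Mrps36, members under the filter and zeros beside a median of 5 FPKM or more; of each list up to 2 genes, and also Yy1 for its motif. Gene coordinates span the whole gene (GENCODE, mm10, 1-based), and promoters are RefSeq's. Replicates are separate mice; the r of a pair of replicates was 0.861 to 0.905, across genes, which are not independent, and 0 pairs were identical. Alternatives changed the pseudocount (0.1), the filter, the scaling, the libraries fitted and the replicate block.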

Additional observations from a re-analysis of the deposited data

How the results depend on the processing

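For heart minus muscle 26 members passed, 11 among genes with a mean of 5 FPKM or more, where fewer genes were tested, and 5 with only the 4 wild-type libraries; leaving out each library in turn gave 19 to 32. For hearts of untreated trans/mdx against mdx mice 0 passed, but 1 (Mrpl55) with only the 4 libraries compared, and 0 to 1 when each library was left out. In the other comparisons the count was 0 in every alternative run. Among single genes, the difference of Mrpl28 between mdx and wild-type muscle was 0.42 and ranged from -0.0705 to 0.905 when each library was left out, so its sign rested on muscle mdx replicate 1; the cause was not tested. Same-numbered mice of different groups did not deviate together (correlations from -0.105 to 0.0651 within a tissue and from -0.0198 to 0.00993 between the tissues). This cannot show whether a same-numbered heart and muscle came from the same mouse, and the main fit treated all libraries as independent. With the replicate block 27 members passed between the tissues, 4 higher and 23 lower, and 0 in the comparisons within a tissue. Depth limits the report most for the 8 members in each tissue that rest on fewer than 5 fragments per library. Of the members with coordinates 40 of 75 overlap another annotated gene, 34 of them on the opposite strand and 12 on the same strand. Reads may be shared on the opposite strand if strand was not used, and on the same strand in either case.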
